A study of Mus musculus with 24 samples.

Results

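The sarcolemmal ion channels and the sodium pump of skeletal muscle were examined as 7 genes, taken by symbol from a table of 47643 Ensembl genes: Scn4a, Clcn1, Kcnj2, Kcnj11, Atp1b1, Atp1b2 and Fxyd1. The table came from plantaris muscle, a fast hindlimb muscle, of wild-type C57BL/6 mice in the air group (11 samples, kept in normal air) and in the smoke group (13 samples, exposed to tobacco smoke for 16 weeks). No age, sex, pooling or batch was given for either group. The labels do not say that each sample came from a separate mouse, so the p-values measure the spread between these samples. The series title concerns chronic activity of the aryl hydrocarbon receptor (AhR), a ligand-activated transcription factor with ligands in tobacco smoke, and adverse effects on muscle. The comparison here asks whether transcripts of the membrane excitability machinery differ after smoke.

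A muscle fibre contracts when an action potential runs along its surface membrane, the sarcolemma, and into the transverse tubules. Sodium channels fire that potential, potassium and chloride channels end it and hold the membrane at rest, and the sodium pump restores the sodium and potassium gradients after each spike. Altered function of these channels is known from inherited muscle diseases: SCN4A variants cause periodic paralysis and myotonia, CLCN1 variants cause myotonia congenita, and KCNJ2 variants cause Andersen-Tawil syndrome.

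Libraries held between 2515697 and 4528845 counts, and 10159 genes passed the filter on low counts. Values are given as CPM, counts scaled to a common library total. The libraries read transcripts near their 3′ end, so CPM values were not divided by gene length. In every sample the fast-fibre and general muscle markers were abundant: 8 of 8 listed genes (Acta1, Ckm, Tnnt3, Myh4, Myh1, Actn3, Atp2a1 and Pvalb) passed the filter, and together they took 126315 to 200733 CPM in air and 133398 to 167954 CPM in smoke. Heart markers (Myh6, Nppa, Nppb, Myl7 and Tnni3) were below the filter in 5 of 5 cases, and Nppb had no count. Per the file headers, all smoke samples preceded all air samples in the sample sheet, so sheet position and group cannot be told apart.

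Upstream sequence is shown for the 2 members with the smallest p-values, Atp1b1 and Fxyd1, and for Clcn1, the tested member with a higher mean in smoke. Each is the 250 bases before the RefSeq start site, 5′ to 3′ on the strand of the gene, from the RefSeq promoter table (GRCm38.p6), in which 5 of the 7 members had an entry. For Atp1b1 (chr1:164458356-164458605, minus strand) and Fxyd1 (chr7:31054854-31055103, minus strand), capitals mark the core of the AhR response element, GCGTG, searched on both strands. For Clcn1 (chr6:42286435-42286684, plus strand), capitals mark the E-box CANNTG, bound by myogenic basic helix-loop-helix factors, and the MEF2 pattern (CTA, any 4 bases, TAG), both searched on both strands.
Atp1b1: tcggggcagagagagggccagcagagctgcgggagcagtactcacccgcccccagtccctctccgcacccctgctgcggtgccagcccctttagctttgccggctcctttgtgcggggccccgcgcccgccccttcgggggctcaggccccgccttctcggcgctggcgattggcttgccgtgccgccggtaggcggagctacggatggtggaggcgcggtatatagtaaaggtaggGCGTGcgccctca
Fxyd1: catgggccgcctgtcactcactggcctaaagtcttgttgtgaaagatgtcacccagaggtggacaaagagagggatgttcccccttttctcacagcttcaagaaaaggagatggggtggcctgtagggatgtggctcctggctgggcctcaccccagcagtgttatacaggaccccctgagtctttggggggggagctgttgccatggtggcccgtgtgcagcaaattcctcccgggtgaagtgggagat
Clcn1: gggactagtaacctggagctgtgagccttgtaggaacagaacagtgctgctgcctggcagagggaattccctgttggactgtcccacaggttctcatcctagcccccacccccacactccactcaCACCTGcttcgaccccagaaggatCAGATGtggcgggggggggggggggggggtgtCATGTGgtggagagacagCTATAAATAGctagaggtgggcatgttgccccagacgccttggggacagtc
The Fxyd1 window lies inside the longer GENCODE span of that gene and covers 0 of its exonic bases, as do those of Atp1b1, Clcn1 and Kcnj2, whereas 186 of the 250 bases of the Scn4a window are exonic in GENCODE transcripts of Scn4a. The Atp1b1 window held 1 GCGTG, which begins 13 bases before the start site, and the windows of Fxyd1, Clcn1, Scn4a and Kcnj2 held none. Of 32536 such windows in the table, 28.3% held this core. The Clcn1 window held 3 E-box matches, and 66.2% of all windows held at least 1. It also held 1 MEF2 match, CTATAAATAG, which begins 51 bases before the start and contains the letters TATAAA of a TATA box. MEF2 matches were found in 3.22% of all windows and TATAAA in 12.3%. The Atp1b1 window was 70.4% G or C, against 57.2% for Fxyd1, 60.0% for Clcn1 and a median of 52.4% over all windows. These matches describe letters only and were not tested for binding.

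None of the 7 members was called different between smoke and air. Of the 5 that passed the filter on low counts (Scn4a, Clcn1, Atp1b1, Atp1b2 and Fxyd1), 0 had an adjusted p under 0.05 in edgeR's quasi-likelihood test with Benjamini-Hochberg adjustment over all genes, against 1.92% of all genes tested (0.728% higher and 1.19% lower). The sodium pump subunit Atp1b1 came closest, with a smoke mean 0.834 times that of air, and the pump regulator Fxyd1 followed at 0.892 times. Both had an unadjusted p under 0.05, as had 15.5% of all genes (7.55% higher and 7.95% lower). The remaining 3 tested members lay between 0.960 and 1.06 times air. DESeq2 and limma voom also called 0 members. In whole muscle, fewer cells of a type and less RNA per cell cannot be told apart.

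**Figure D1:**
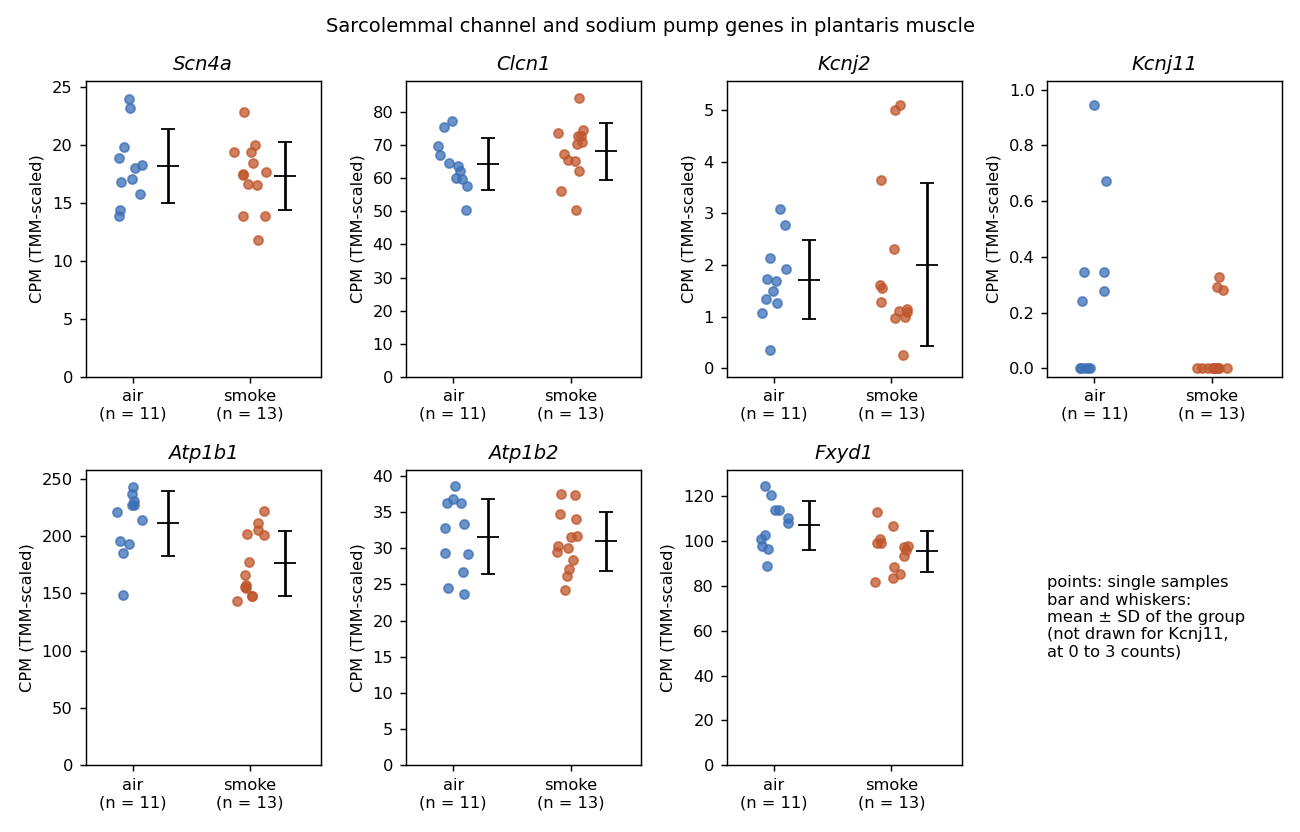
CPM (vertical axes) of the 7 members in each air sample (blue, n = 11) and each smoke sample (orange, n = 13), with the mean and SD of the group in black except for Kcnj11, which had 0 to 3 counts per sample. The groups overlap in every panel. The Atp1b1 means are 211 CPM in air and 176 CPM in smoke.

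From highest to lowest, mean levels in air were those of Atp1b1 (211 CPM), Fxyd1 (107 CPM), Clcn1 (64.4 CPM), Atp1b2 (31.6 CPM), Scn4a (18.2 CPM), Kcnj2 (1.72 CPM) and Kcnj11 (0.257 CPM). The order of means was the same in smoke. Neighbours in this order did not overlap between samples, with these exceptions: Atp1b2 and Scn4a overlapped in air, Fxyd1 and Clcn1 overlapped in smoke, and Kcnj2 and Kcnj11 overlapped in both groups.

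Scn4a encodes Nav1.4, the sodium channel that carries the upstroke of the muscle action potential (ENSMUSG00000001027, chromosome 11, 106318592 to 106353288, minus strand, no overlapping gene). It ranged from 13.9 through a median of 18.0 to 23.9 CPM in air and from 11.8 through 17.5 to 22.8 CPM in smoke. The ranges overlapped almost wholly, with 2 smoke samples under the lowest air sample and 2 air samples above the highest smoke sample. The mean was 18.2 ± 3.21 CPM (SD, n = 11) in air and 17.3 ± 2.92 CPM (SD, n = 13) in smoke. Smoke against air was −0.058 ± 0.10 (SE) on the log2 scale, with an adjusted p of 0.853 in edgeR. The 95% interval ran from 0.830 to 1.11 times air. Scn4a had 36 to 90 counts per sample, the fewest of the tested members. Counting error alone at that depth gives a coefficient of variation of 12.6% in air and 12.95% in smoke, beside observed values of 17.7% and 16.9%.

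Clcn1 encodes ClC-1, the chloride channel that sets most of the resting conductance of muscle fibres and damps repeated firing (ENSMUSG00000029862, chromosome 6, 42286685 to 42315756, plus strand). Air samples ran from 50.5 through a median of 63.8 to 77.3 CPM and smoke samples from 50.3 through 70.3 to 84.3 CPM. Although 10 of 13 smoke samples lay above the air median, only 1 exceeded the highest air sample and the lowest values of the groups were nearly equal. Means were 64.4 ± 7.80 CPM (SD, n = 11) and 68.1 ± 8.64 CPM (SD, n = 13). The log2 fold change was 0.082 ± 0.074 (SE), with an adjusted p of 0.661 in edgeR and a 95% interval from 0.954 to 1.17 times air. The 3′ end of Clcn1 overlaps that of Fam131b on the opposite strand by 445 exonic bases. Whether reads were counted by strand is not given in the sources used here. Fam131b had 0 to 4 counts per sample, against 146 to 314 for Clcn1.

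The inward rectifier members Kcnj2 and Kcnj11 were near the limit of detection, where 3 counts equal 0.665 to 1.15 CPM. Kcnj2 encodes Kir2.1, a potassium channel that holds the resting potential (ENSMUSG00000041695, chromosome 11, 111066164 to 111076821, plus strand). It had 1 to 12 counts per sample in air (0.348 to 3.09 CPM, median 1.70) and 1 to 17 in smoke (0.255 to 5.10 CPM, median 1.28). Smoke replicates 1, 4 and 11, at 3.65, 5.10 and 4.99 CPM, were above every air sample, while 9 of 13 smoke samples were below the air median. The smoke mean (2.00 ± 1.57 CPM, SD, n = 13) was therefore above the air mean (1.72 ± 0.768 CPM, SD, n = 11) although the smoke median was lower, and a two-sided permutation test on CPM gave p = 0.588 (Benjamini-Hochberg adjusted p = 0.588 over the 2 members below the filter).

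Kcnj11 encodes Kir6.2, the pore of the ATP-sensitive potassium channel, which opens when cellular energy runs low (ENSMUSG00000096146, chromosome 7, 46093953 to 46100764, minus strand). It had 9 counts over all 11 air samples and 3 over all 13 smoke samples, with at most 3 in any sample. It had no count in 5 air and 10 smoke samples. The permutation test on CPM gave p = 0.0610 (adjusted p = 0.122 over 2 members), and no fold is given because both groups were at or under the floor in every sample. At this depth the size of any difference in Kcnj11 could not be measured. Without the filter on low counts, the edgeR adjusted p was 0.850 for Kcnj2 and 0.468 for Kcnj11. Abcc9, the sulfonylurea receptor SUR2 that surrounds Kir6 pores, was well detected, at 105 ± 11.8 CPM (SD, n = 11) in air and 114 ± 9.13 CPM (SD, n = 13) in smoke (log2 fold change 0.12, edgeR adjusted p = 0.331). The other Kir6 pore gene, Kcnj8, stood at 44.8 ± 7.39 and 49.2 ± 9.32 CPM (log2 fold change 0.13, edgeR adjusted p = 0.530). Kcnj12, which encodes Kir2.2, stood at 12.6 ± 2.10 and 13.5 ± 2.45 CPM (log2 fold change 0.097, edgeR adjusted p = 0.737).

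Atp1b1 encodes the beta 1 subunit of the sodium pump, a glycoprotein needed for the catalytic alpha subunit to fold and reach the membrane (ENSMUSG00000026576, chromosome 1, 164437109 to 164458355, minus strand). Air samples ran from 148 through a median of 221 to 243.1 CPM, and smoke samples from 143 through 166 to 222 CPM. In smoke 12 of 13 samples lay below the air median, and 5 air samples lay above the highest smoke sample. The lowest air sample, replicate 11 at 148 CPM, fell among the lowest smoke samples. The means were 211 ± 28.1 CPM (SD, n = 11) and 176 ± 28.2 CPM (SD, n = 13), and smoke differed from air by −0.26 ± 0.080 (SE) on the log2 scale (95% interval −0.42 to −0.10). The unadjusted p was 0.00233, rank 305 of 10159 genes, and the adjusted p was 0.0775 in edgeR, so the difference did not pass the threshold.

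Single libraries decided on which side of the threshold Atp1b1 fell. The gene was called without air replicate 11 (log2 fold change −0.31, edgeR adjusted p = 0.0150), without smoke replicate 11 (−0.29, adjusted p = 0.0411) and without smoke replicate 13 (−0.28, adjusted p = 0.0491). Leaving out any of the other 21 samples left it uncalled, with adjusted p up to 0.134. Air replicate 11 also had the highest Scn4a value in air (23.9 CPM) and the second highest Clcn1 value (75.6 CPM). The 3′ end of Atp1b1 overlaps Nme7 on the opposite strand by 575 exonic bases. Nme7 had 0 to 10 counts per sample, against 404 to 922 for Atp1b1.

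Atp1b2, the beta 2 subunit, is found in fast muscle fibres and in glial cells (ENSMUSG00000041329, chromosome 11, 69599736 to 69605942, minus strand, no overlapping gene). It ran from 23.7 through a median of 32.8 to 38.5 CPM in air and from 24.2 through 30.3 to 37.5 CPM in smoke, so that every smoke sample lay inside the air range. The means, 31.6 ± 5.21 CPM (SD, n = 11) and 30.9 ± 4.10 CPM (SD, n = 13), differed by −0.025 ± 0.088 (SE) on the log2 scale (edgeR adjusted p = 0.933), with a 95% interval from 0.869 to 1.11 times air. Its sign turned to 0.0071 without air replicate 10 (edgeR adjusted p = 0.986). Markers of Schwann cells, the glia of peripheral nerve, were higher in smoke: 5 of 9 tested were called, all 5 higher, and the 10 listed genes summed to 172 to 394 CPM in air and 249.5 to 1025 CPM in smoke. Their part in the Atp1b2 values was not tested.

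Fxyd1 encodes phospholemman, a small membrane protein that restrains the pump until it is phosphorylated (ENSMUSG00000036570, chromosome 7, 31051678 to 31057199, minus strand, no overlapping gene). Samples ran from 88.8 through a median of 108 to 124 CPM in air and from 81.6 through 97.1 to 113 CPM in smoke. In smoke 12 of 13 samples lay below the air median and 4 lay under the lowest air sample. The means were 107 ± 10.8 CPM (SD, n = 11) and 95.4 ± 9.09 CPM (SD, n = 13), a difference of −0.16 ± 0.061 (SE) on the log2 scale (95% interval −0.29 to −0.039). The unadjusted p of 0.0114 became an adjusted p of 0.161 in edgeR. Among the tested members Fxyd1 varied least between samples of a group, with a coefficient of variation of 10.1% in air and 9.53% in smoke.

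Genes of the pump were also read as a list from the same fit. The pump list held 15 genes, of which 10 were tested and 0 called, with 2 log2 fold changes above 0 and 8 under 0. These counts and the median include the members Atp1b1, Atp1b2 and Fxyd1, which were all under 0. The median log2 fold change of the list was −0.14, beside 0.0066 over all genes tested. Fxyd6, another FXYD regulator, stood at 231.7 ± 37.4 and 198 ± 32.8 CPM (log2 fold change −0.23, edgeR adjusted p = 0.152).

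**Figure D2:**
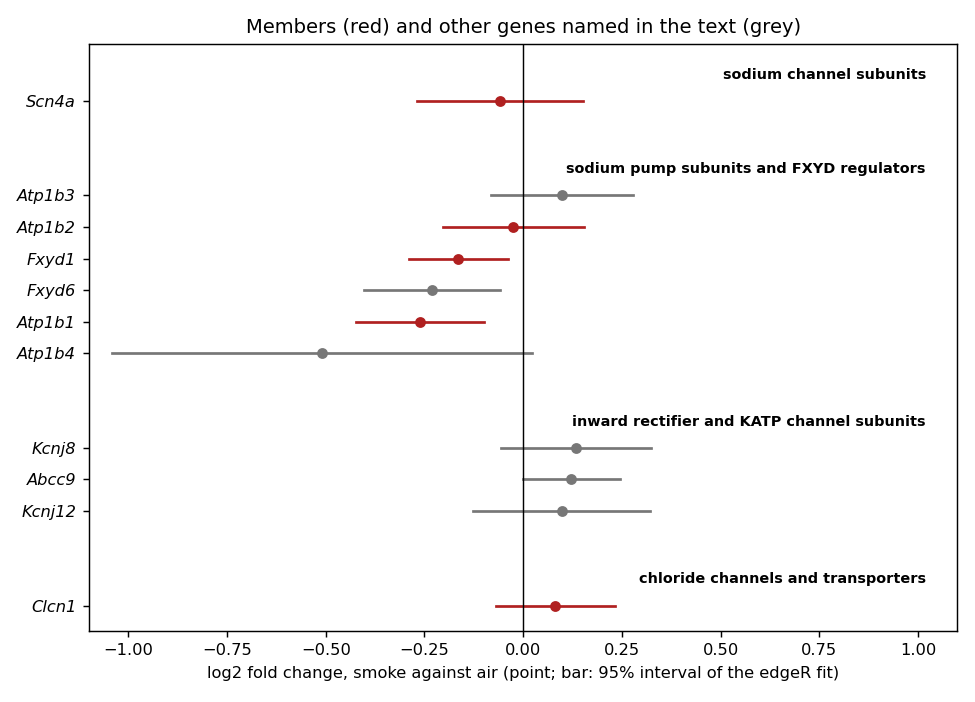
Log2 fold change of smoke against air (horizontal axis) with its 95% interval in the edgeR fit, for the 5 tested members (red) and 6 other pump and potassium channel genes named in the text (grey). No gene shown had an adjusted p under 0.05. The intervals of Atp1b1 and Fxyd1 lie below 0 and those of Scn4a, Clcn1 and Atp1b2 include 0.

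The make-up of the beta subunits was described without a test, since Atp1b1 enters every share. Atp1b1 took 70.6 to 80.9% of the summed CPM of the 4 beta subunit genes in air (median 74.5%) and 66.1 to 75.7% in smoke (median 69.9%). For Atp1b2 the median share was 10.9% in air (8.07 to 17.2%) and 12.99% in smoke (9.52 to 14.5%). Atp1b3 had a median share of 13.1% in air (10.1 to 14.6%) and 16.5% in smoke (11.6 to 20.6%). Air replicate 11, the sample with the lowest Atp1b1 level in air, held the highest Atp1b2 share. The level of Atp1b3 itself was 36.6 ± 5.87 CPM (SD, n = 11) in air and 39.2 ± 5.58 CPM (SD, n = 13) in smoke (log2 fold change 0.098, edgeR adjusted p = 0.658). Atp1b4, a muscle-specific relative that acts at the nuclear envelope, was low, at 3.09 ± 1.30 and 2.19 ± 1.08 CPM (log2 fold change −0.51, edgeR adjusted p = 0.351).

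**Figure D3:**
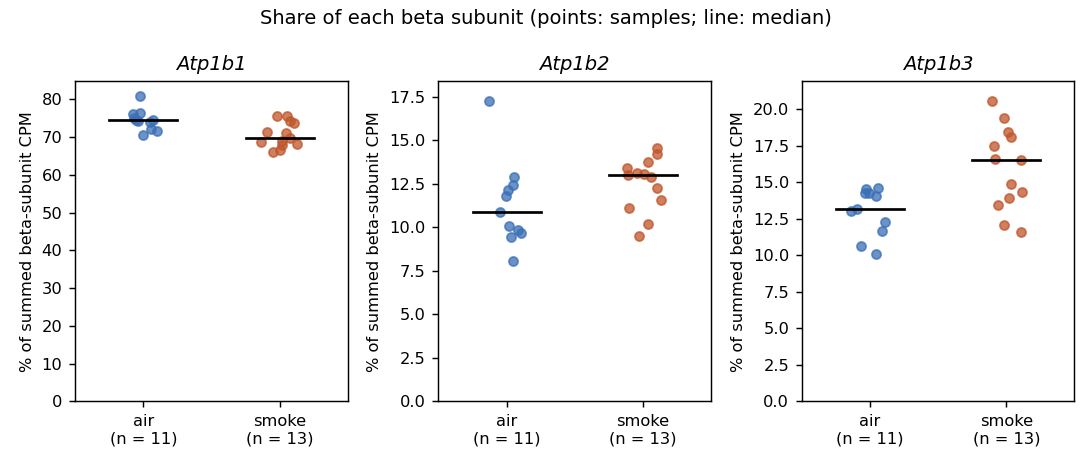
Share of Atp1b1, Atp1b2 and Atp1b3 in the summed CPM of 4 beta subunit genes (vertical axes, percent) in each air (blue) and smoke (orange) sample, with group medians as lines. The median of Atp1b1 is 74.5% in air and 69.9% in smoke, and the groups overlap in all 3 panels.

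Beyond the members, 8 lists of membrane excitability and ion transport held 111 further genes, of which 70 passed the filter. None of these 70 was called in edgeR, against 1.92% of all genes. At an unadjusted p under 0.05 there were 13 (9 higher, 4 lower), beside 15.5% of all genes (7.55% higher and 7.95% lower). DESeq2 called 1 of the 70, and 323 of all 10159 genes. Log2 fold changes were above 0 for 38 and under 0 for 32, with a median of 0.020. The sodium channel list had 6 tested genes (2 higher, 4 lower, median −0.069) and the inward rectifier list 4 (3 higher, 1 lower, median 0.11). For the other potassium channels there were 13 (5 higher, 8 lower, median −0.015), and for chloride channels and transporters 12 (10 higher, 2 lower, median 0.10). Splicing factors and membrane anchors of the channels numbered 14 (9 higher, 5 lower, median 0.020), T-tubule calcium channel genes 7 (2 higher, 5 lower, median −0.043), and sodium exchangers and water channels 9 (6 higher, 3 lower, median 0.096). These counts include the members on each list and give the sign of the fold change only, since no gene on the lists passed the test.

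**Figure D4:**
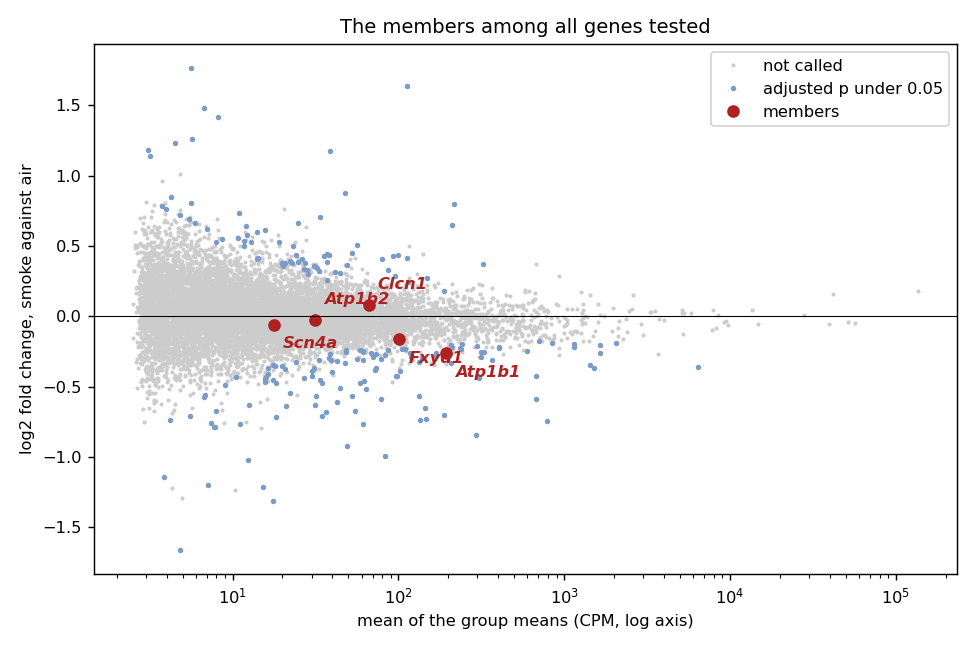
Log2 fold change of smoke against air (vertical axis) against the mean CPM (horizontal log axis) for 10159 genes, with genes at an adjusted p under 0.05 in blue and the 5 tested members in red. The members lie between −0.26 and 0.082, inside the cloud of genes that were not called.

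The members' size of change can be read against all genes. The absolute log2 fold change of Atp1b1 was larger than that of 84.3% of genes tested, that of Fxyd1 larger than 67.2%, and those of Clcn1, Scn4a and Atp1b2 larger than 39.2%, 29.2% and 13.02%. The median absolute log2 fold change over all genes was 0.11. No member had group ranges that did not overlap, a pattern seen in 0.0295% of all genes.

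Samples of the same group were then used to ask whether the members vary together. Over 10 pairs of the 5 tested members in each group, 20 relations in all, Pearson's r of log2 CPM lay between −0.61 and 0.53, with 5 of 10 above 0 in air and 6 of 10 in smoke. None passed Benjamini-Hochberg adjustment (two-sided permutation tests, lowest adjusted p = 0.622 for r and 0.613 for Spearman's rho), and 1 of the 20 had an unadjusted p under 0.05. That was Scn4a with Atp1b1 in air (n = 11), at r −0.61 (permutation p = 0.0470) and rho −0.50 (permutation p = 0.123). With the 2 most extreme samples for Scn4a left out, r was −0.20. Leaving out extreme values narrows the range of Scn4a and can weaken r by itself, so this step does not show what the relation rested on. In smoke (n = 13) the same pair had r −0.033 (permutation p = 0.914). The pump regulator Fxyd1 and the beta subunit Atp1b2 had r 0.53 in air (permutation p = 0.0933, rho 0.59, permutation p = 0.0602), 0.63 without 2 samples, and r 0.20 in smoke (permutation p = 0.513, rho 0.27, permutation p = 0.374). Scn4a and Atp1b2 had r 0.52 in smoke (permutation p = 0.0725, rho 0.47, permutation p = 0.112) and 0.27 without 2 samples.

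**Figure D5:**
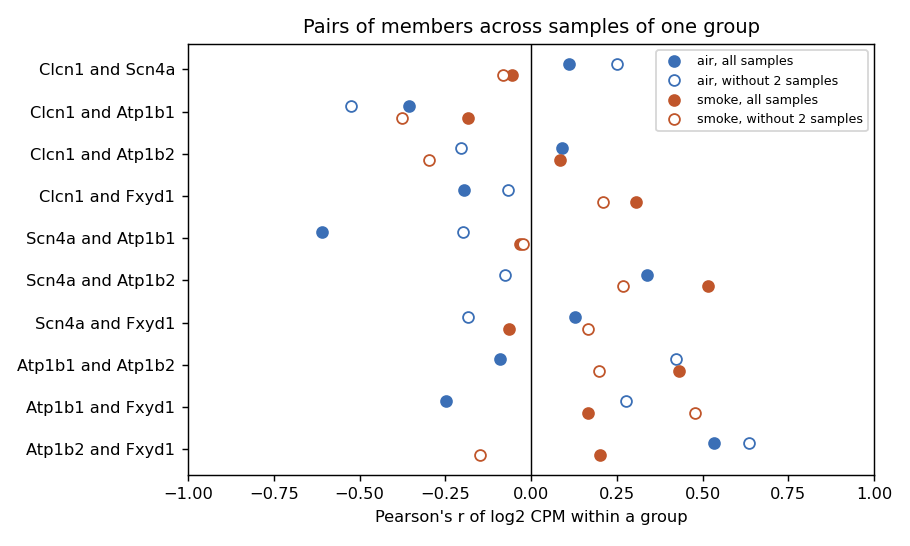
Pearson's r (horizontal axis) of log2 CPM for each pair of tested members within air (blue, n = 11) and within smoke (orange, n = 13), filled for all samples and open with the 2 most extreme samples for the first gene left out. Points scatter on both sides of 0, and r of Scn4a and Atp1b1 in air goes from −0.61 to −0.20.

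The genes most like each member were ranked by r of log2 CPM deviations from the group means over 24 samples, among 10154 genes, as a description. For Clcn1 they were Tmem38a (0.69), which encodes the sarcoplasmic reticulum cation channel TRIC-A, Arl3 (0.67) and Eif4g1 (0.67). For Scn4a they were Cped1 (0.79), Mprip (0.76) and Slc17a1 (0.75). Atp1b1 was followed most closely by Senp6 (0.79), Asb6 (0.77) and Homer2 (0.75), a scaffold protein of muscle and synapse. The nearest to Atp1b2 were Naa15 (0.70), Cwf19l1 (0.66) and Gm11228 (0.62), and those to Fxyd1 were Cul4b (0.67), Safb2 (0.67) and Osgep (0.67). None of these 15 genes was called between smoke and air.

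Markers of other cells and of fibre type were measured beside these values. Of 6 slow and oxidative fibre genes 0 were called, and their log2 fold changes were split, 3 above 0 and 3 under 0. Those above 0 were Tnni1 (0.43), Myh7 (0.15) and Tnnt1 (0.016), and those under 0 were Atp2a2 (−0.35), Myl3 (−0.29) and Myh2 (−0.27). The summed CPM of the list, most of it from Myh2, was 3499 to 5436 in air and 2829 to 4898 in smoke. The type 2A myosin gene Myh2 stood at 4002 ± 533 CPM (SD, n = 11) in air and 3328 ± 546 CPM (SD, n = 13) in smoke (edgeR adjusted p = 0.0627). Red blood cell markers were lower in smoke, with 3 of 5 called and sums of 486 to 1444 CPM in air and 369 to 883 CPM in smoke. Of the endothelial (7 tested), smooth muscle (5), fibroblast (8), adipocyte (7) and macrophage (5) markers, 0 were called. The part of any of these in the Atp1b1 and Fxyd1 values was not tested.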

How the data were processed

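Plantaris RNA from 11 air and 13 smoke samples was read with Lexogen QuantSeq 3′ libraries on an Illumina HiSeq instrument, per the labels' protocols. The authors deposited raw read counts per Ensembl gene. The submitters' processing notes name STAR, DESeq2 and the build mm9, with no role; the counting tool, annotation, strand use and any removal of PCR copies are not given in the sources used here. Symbols came from GENCODE M21 for 47224 of 47643 IDs, and gene coordinates are from the same annotation (GRCm38, 1-based). The counts carry no coordinates of their own.

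Counts were tested with edgeR 4.0.16 in R 4.3.3: filterByExpr (minimum count 10), TMM scaling, and the quasi-likelihood test on 24 samples with Benjamini-Hochberg adjustment over 10159 genes (threshold 0.05). The 95% intervals come from that fit. Members below the filter and correlations between members (log2 CPM, prior count 2) were tested by two-sided permutation (100000 resamples). Alternatives covered scaling, filters, DESeq2 1.42.0, limma 3.58.1, the replicate number as a block and leaving out samples. Totals of 2515697 to 4528845 counts put 3 counts at 0.665 to 1.15 CPM, for counting error only. Counts of 133 same-group sample pairs differed beyond sampling noise (chi-square 2.52 to 18.5 per gene), and no samples were merged.

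Genes named were the 7 members, list genes at an adjusted p under 0.05, and the 3 genes most correlated with each tested member. Pump, channel, marker and overlapping genes named beside them were chosen after their values were seen. Some list genes are counted but not reported here by name. Members and lists were chosen with earlier results of these data known.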

Additional observations from a re-analysis of the deposited data

How the results depend on the processing

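Of all genes tested, 195 were called, from 141 to 254 when each sample was left out in turn, and 323 by DESeq2 (121 higher, 202 lower); the cause of the larger count was not tested. No member was called under RLE or upper-quartile scaling, DESeq2, limma voom, either other filter, or removal of the 10 most abundant genes; leaving out samples gave from 0 to 1, in each case Atp1b1, whose adjusted p was 0.0518 to 0.127 over the 8 other settings, by edgeR, DESeq2 or limma. Of the 120 comparisons with a sample left out, 116 of the tested members' values kept direction and side of the threshold; Atp1b2 ranged from −0.063 to 0.0071, the sign turning only without air replicate 10. Among the 70 other list genes, DESeq2, no filter and a filter of 1 CPM in 11 samples each called 1, and leaving out samples gave from 0 to 1, among them Kcnc1 without air replicate 2 or smoke replicate 10, and Kcnc4, higher, without air replicate 11. No pair of members passed under any of 27 alternatives. Same-numbered samples share only a number (mean r of deviations −0.0059 over 11 pairs); with the replicate block 138 genes and 0 members were called. Kcnj2 and Kcnj11 lie at the depth limit, and the 41 list genes below the filter were not tested in the fit.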
